A study of Mus musculus with 2 samples.

Results

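Neural intermediate filament genes were examined in RNA-seq of mouse embryonic neural tube. The group comprised 8 genes chosen by name: the neurofilament triplet Nefl, Nefm and Nefh, the neuronal filament genes Ina and Prph, and the progenitor and glial filament genes Vim, Nes and Gfap. All 8 were found, each as 1 row, among the 43346 mouse genes of both gene tables. The tissue was neural tube of embryonic day 13.5 from healthy mice of the strain B6NCrl, pooled from male and female embryos. No altered allele and no treatment is given for it. The 2 libraries are biological replicates 1 and 2 of 1 group, each made from 10 ng of RNA, so that no comparison between conditions was possible. How many embryos went into a pool is not given, and the spread between the libraries may hold a technical part.

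Intermediate filaments are rope-like cytoskeletal polymers whose subunits change as a cell differentiates. Dividing neuroepithelial cells and radial glia build them from vimentin and nestin. Young neurons switch to alpha-internexin, peripherin and the light and medium neurofilament subunits, while the heavy subunit is known for appearing late, as axons mature and widen. Glial fibrillary acidic protein, the product of Gfap, is the filament protein of mature astrocytes.

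Replicate 1 held 34125110 estimated reads in all, the smaller library of replicate 2 22311849. All 9 genes of a neuronal marker list and all 8 of a progenitor and radial glial list reached 1 TPM (transcript abundance scaled for model length and library depth) in both libraries. So did the markers of tissues around the tube: all 7 mesenchymal, all 5 endothelial, all 5 Schwann cell and all 5 skeletal muscle genes. Of the muscle genes, 4 were at least 2-fold higher in replicate 2 at an adjusted p below 0.05, where 1.46% of all tested genes were, by the exact binomial test between libraries described with peripherin, and they summed to 127 and 216 TPM in replicates 1 and 2 with the fifth included.

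The sequences that follow are some of the stretches by which transcript models of Prph, Nes and Vim differ, shown since the assignment of reads to those models sets several of the values below. The coding models compared also differ at their ends, which are not shown, by up to 329 bases at the start of Vim. The sequences were read from the GENCODE M21 transcripts on GRCm38 (mm10), all on the plus strand and written 5′ to 3′. Capitals mark the differing stretch and lower case the 15 transcript bases beside it. The Prph stretch, chr15:99056937-99057032, is an intron of 96 bases that the longer model keeps inside its coding sequence. The Nes stretch, chr3:87976581-87976712, holds 132 coding bases of the last exon that the shorter coding model leaves out. The first Vim stretch, chr2:13581613-13581698, is coding exon 8 of 9, 86 bases that the second coding model lacks. The second, chr2:13579369-13579420, holds the 52 intron bases with which a short noncoding Vim model begins.
Prph kept intron: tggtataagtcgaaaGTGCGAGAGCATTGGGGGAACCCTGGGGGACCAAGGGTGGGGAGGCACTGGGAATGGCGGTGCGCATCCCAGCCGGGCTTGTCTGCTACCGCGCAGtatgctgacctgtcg
Nes omitted stretch: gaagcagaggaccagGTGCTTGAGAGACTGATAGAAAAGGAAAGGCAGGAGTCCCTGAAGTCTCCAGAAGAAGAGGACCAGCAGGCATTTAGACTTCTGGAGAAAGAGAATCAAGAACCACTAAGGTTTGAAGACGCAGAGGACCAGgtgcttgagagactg
Vim exon 8: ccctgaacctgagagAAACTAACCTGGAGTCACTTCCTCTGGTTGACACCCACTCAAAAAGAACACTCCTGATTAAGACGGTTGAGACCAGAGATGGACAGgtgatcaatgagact
Vim intron bases: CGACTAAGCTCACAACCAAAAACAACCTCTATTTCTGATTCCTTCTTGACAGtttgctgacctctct

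Among the neurofilament transcripts the light chain led, and the heavy chain made up very little of the sum. Nefl, whose subunit is the core of the neurofilament, measured 852 TPM in the first replicate and 888 TPM in the second, or 870 ± 25.3 TPM (SD, n = 2). Nefm, the medium subunit, measured 570 and 567 TPM, or 569 ± 1.93 TPM. Both genes were among the most abundant of all mouse genes: Nefl ranked 97 and 89, and Nefm 179 and 180. Nefh, the heavy subunit whose long tail is phosphorylated in mature axons (chromosome 11, 4938754 to 4948064, minus strand), measured 6.05 TPM from 533 reads and 6.54 TPM from 365 reads. Its exact Poisson intervals at 95% were 5.55 to 6.59 and 5.88 to 7.25 TPM, which cover counting error only. Nefh was thus clearly detected in both libraries, and the libraries' intervals overlapped.

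As shares of the triplet's summed TPM, Nefl held 60.2 ± 0.763%, Nefm 39.4 ± 0.78% and Nefh 0.435 ± 0.0168% (SD, n = 2). Nefl exceeded Nefm by 1.495-fold in replicate 1 and 1.565-fold in replicate 2, so the transcripts of the light and medium chains were of the same order. Protein was not measured, and these shares are of RNA only. Nefl exceeded Nefh by 141-fold and 136-fold, and Nefm exceeded Nefh by 94.2-fold and 86.8-fold. The split between the light and medium chain transcripts on one side and the heavy chain transcript on the other was far larger than the difference between the libraries. Counted as reads, without division by length, Nefh held 0.505% of the triplet in replicate 1 (95% Wilson interval 0.464 to 0.55) and 0.533% in replicate 2 (0.481 to 0.591).

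The other neuronal filament genes differed from each other in level and in how closely the libraries agreed. Ina, which encodes alpha-internexin, a subunit that joins neurofilaments in central axons (chromosome 19, 47014698 to 47025327, plus strand), measured 509.6 and 521.5 TPM, or 516 ± 8.39 TPM (SD, n = 2). Its first 456 bases lie on the gene Nt5c2 of the opposite strand, which measured 46.0 and 48.3 TPM. Among the triplet and Ina together, Ina held 26.3% of TPM in each library. Prph, which encodes peripherin, a filament of neurons that send axons to the periphery such as motor and sensory neurons (chromosome 15, 99055174 to 99058978, plus strand), measured 268 and 198 TPM in the first and second replicate. That gave 233 ± 49.5 TPM, an SD of 21.2% of the mean against 2.91% for Nefl, 0.339% for Nefm and 1.63% for Ina. These SDs are of the deposited TPM, and the order of the last 3 genes depends on the scaling. In the scaled reads compared further below, the log2 ratio between libraries was 0.0 for Nefl, -0.03 for Ina and -0.07 for Nefm. Prph remained the furthest apart at -0.50. Within the summed TPM of the 5 neuronal genes, Nefl held 39.7 ± 1.47%, Nefm 25.9 ± 0.117%, Ina 23.5 ± 0.568%, Prph 10.6 ± 2.17% and Nefh 0.287 ± 0.0181%.

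Of the progenitor and glial filaments, Vim was by far the highest. Vim, which encodes vimentin, a filament that radial glia share with mesenchyme and endothelium (chromosome 2, 13573927 to 13582826, plus strand), measured 725 and 743 TPM, or 734 ± 12.8 TPM (SD, n = 2). Nes, whose product nestin polymerises together with vimentin in neural progenitors (chromosome 3, 87971078 to 87980451, plus strand), measured 32.7 and 35.3 TPM, or 34 ± 1.87 TPM. Vim exceeded Nes by 22.19-fold and 21.04-fold on the TPM scale, and by 5.13-fold and 4.88-fold in reads undivided by length. The mesenchymal marker genes summed to 751 and 796 TPM and the endothelial ones to 126 and 131 TPM, and how much of the Vim signal came from those cells was not tested.

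Gfap (chromosome 11, 102887336 to 102900912, minus strand) was barely present. It had 10 reads in replicate 1, a level of 0.17 TPM with an exact Poisson interval of 0.0832 to 0.319, and 3 reads in replicate 2, a level of 0.08 TPM with an interval of 0.0173 to 0.245. A count of 0 would allow 3 reads, so replicate 2 stood at the limit of what its depth could show. The lncRNA gene Gm26668 spans the whole Gfap locus on the opposite strand and measured 0.65 and 0.98 TPM. The deposited Gfap counts were whole, and the posterior SD of the gene's count, the estimate's uncertainty of assignment, was 0 in both libraries. The authors' estimate thus divided no Gfap reads with Gm26668 or another gene. Its strand setting is unknown, and the true strand of these few reads was not tested. Of 7 other astrocyte genes, several of which radial glia also express, 6 reached 1 TPM in both libraries, led by Glul 122 ± 12.8, Aldoc 111 ± 2.49 and Gja1 78.1 ± 3.75 TPM (SD, n = 2). The lowest were the water channel gene Aqp4 at 1.19 and 0.87 TPM and the calcium-binding protein gene S100b at 2.94 and 2.47 TPM, both named after their values were seen.

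**Figure D1:**
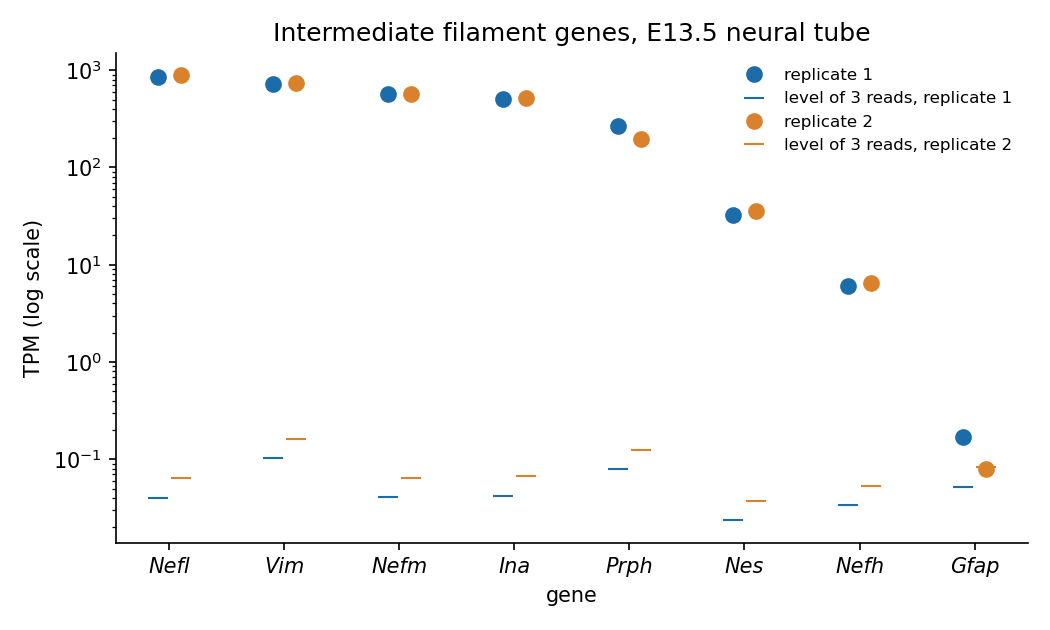
Level of each filament gene in TPM on a log axis, 1 point per library, with short lines at the level that 3 reads would give. The order runs from Nefl at 852 and 888 TPM to Gfap at 0.17 and 0.08 TPM, and the libraries separate visibly at Prph and Gfap. The Gfap points rest on 10 and 3 reads, and their Poisson intervals overlap.

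The order of the 8 genes by TPM was the same in both libraries: Nefl, Vim, Nefm, Ina, Prph, Nes, Nefh and Gfap. No gene's pair of values overlapped with that of its neighbour. The closest neighbours were Nefm and Ina, at a fold of 1.119 in replicate 1 and 1.088 in replicate 2, and Nefl and Vim, at 1.176 and 1.195. With 2 values against 2, taken as unpaired, an exact permutation test cannot give a two-sided p below 0.333, so the order is a description. All 8 genes summed to 2964 and 2960 TPM, which was 0.341% and 0.339% of the TPM of all mouse genes. The 5 neuronal genes held 74.1 ± 0.518% of that sum (SD, n = 2), Vim 24.8 ± 0.456%, Nes 1.15 ± 0.0641% and Gfap 0.00422 ± 0.00214%.

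The place of Vim in that order rested on how its reads were divided among transcript models. Vim had 6 models in the tables. The 9-exon coding model of 2193 bases took 51.1% of Vim reads in replicate 1 and 50.9% in replicate 2. The coding model without exon 8 took 34.5% and 34.9%, and the noncoding model of 535 bases, which shares 483 of its bases with the 9-exon model, took 13.5% in each. Because TPM divides by length, the short model turned that minor share of reads into 40.41% and 40.44% of the gene's TPM, above the 31.8% and 31.6% of the 9-exon model. The posterior SD of the short model's share of reads, the uncertainty that the authors' estimate attached to the assignment, was 0.316% and 0.361% of the gene's reads.

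When all Vim reads were divided by the effective length of the 9-exon model, the level was 450.3 and 462 TPM, or 456 ± 8.28 TPM (SD, n = 2), in place of 734 TPM. Counting the coding models alone gave 430.4 ± 8.32 TPM. Under both treatments Vim was lower than Nefm and Ina in both libraries. The ratio of Vim to Ina was 1.42 in each library with the deposited TPM and 0.884 and 0.886 over the main model. Over the main model Nefl exceeded Vim by 1.89-fold and 1.92-fold, Vim exceeded Nes by 14.8-fold and 14.0-fold, and with coding models alone by 13.9-fold and 13.4-fold. Over the main model the neuronal share of the 8 genes was 81.8 ± 0.423%. These treatments were chosen after the isoform values were seen. The deposited reads per model do not say whether the 535-base model marks a separate RNA or reads of the full mRNA. The levels of Nefl, Nefm, Nefh, Ina and Prph differed from the deposited TPM by less than the spread between libraries under either treatment. The changes of Nes, to 31.7 ± 1.71 and 31.5 ± 1.49 TPM, were also small beside the distance to its neighbours.

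**Figure D2:**
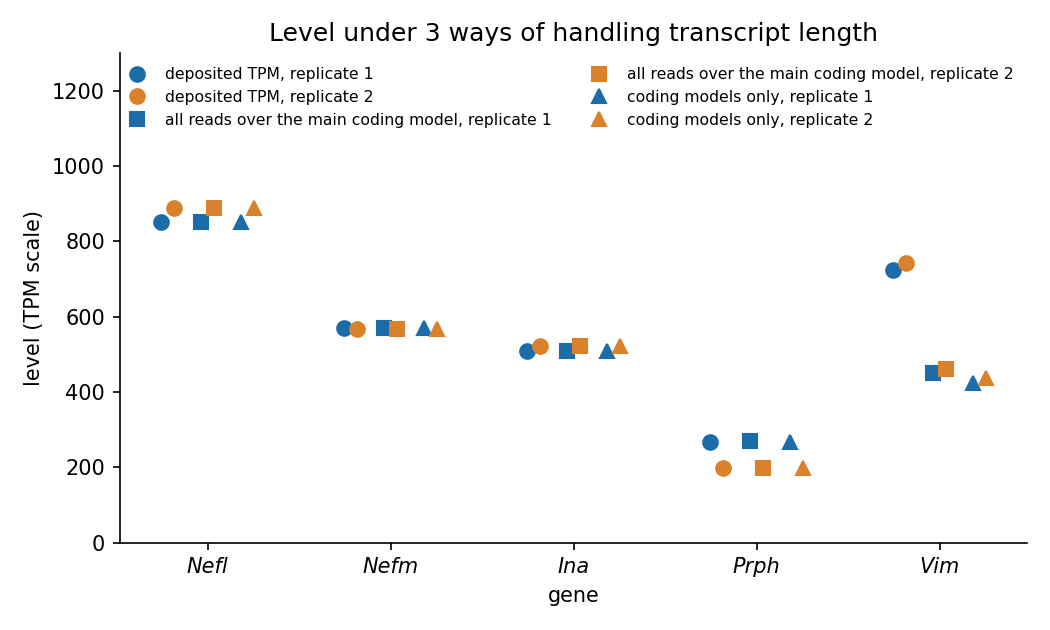
Level on the TPM scale of the 5 most abundant filament genes as deposited, with all reads divided by the length of the coding model with the most reads, and with coding models only; colours give the library. Vim moves from above Nefm and Ina to below them, while the other genes stay in place.

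**Figure D3:**
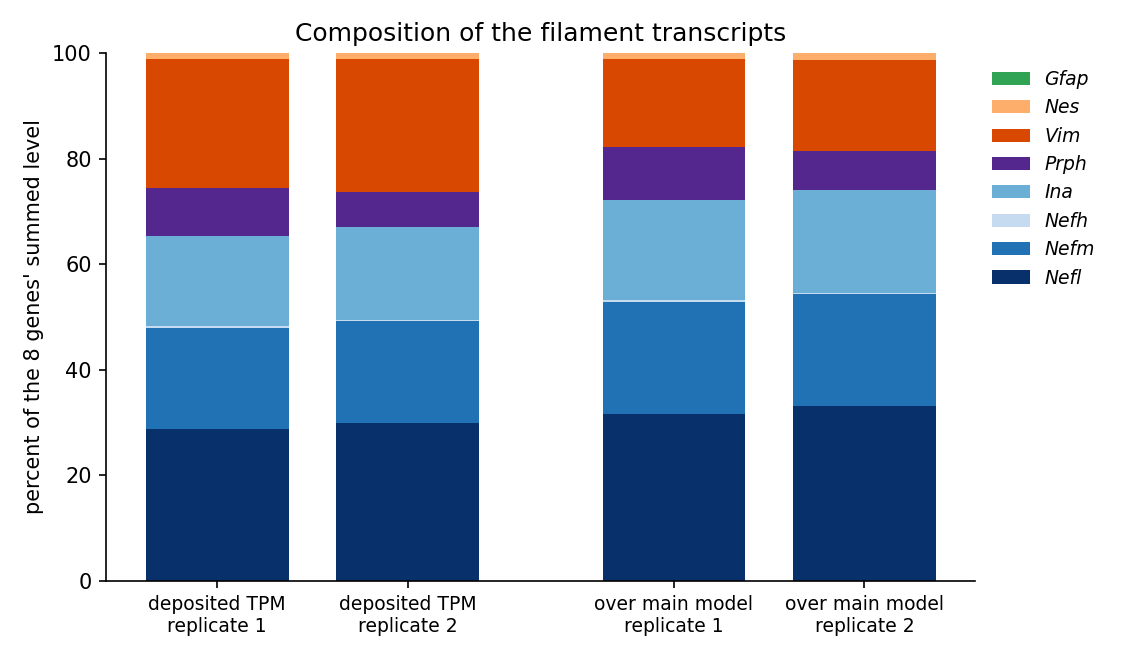
Share of each gene in the summed level of the 8 genes, as stacked bars in percent, from the deposited TPM and from reads over the main coding model. Nefl, Nefm, Ina and Vim fill most of each bar, and the Vim part is 24.5% and 25.1% with the deposited TPM and 16.7% and 17.2% over the main model.

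The coding models of Nes took different shares of its reads in the libraries. In replicate 1 the longer coding model took 49.4% of Nes reads and the shorter one, without the 132-base stretch printed above, took 49.2%. In replicate 2 the longer model took 74.3% and the shorter 24.1%. The posterior SDs of these shares were 6.08% and 6.13% in replicate 1 and 7.5% and 7.41% in replicate 2, so each division is loosely known. The printed stretch lies in the tail of nestin, which is built of repeats. Its first 29 bases are found again directly after its end, and its last 12 also directly before its start, so that an unbroken run of 41 bases occurs on both sides. A read across the junction of the shorter model must reach beyond that run to tell the models apart. Both coding models have nearly the same length, so the summed level of Nes hardly depends on this division. Whether the libraries truly differ in it was not tested.

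The 96-base intron of Prph was kept in a minority of reads. Retention of this intron without a shift of the reading frame is known from mouse peripherin. The model with the intron took 9.89% of the gene's TPM in replicate 1 and 6.94% in replicate 2. In reads this was 10.4% with a posterior SD of 0.804% and 7.31% with a posterior SD of 0.904%. The intron length is a multiple of 3, and the annotation carries the coding sequence through it. The spliced model held the other 90.1% and 93.1% of TPM. The difference between the libraries in the share with the intron was not tested.

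Nefl, Nefh and Ina each had a single model. Nefm had a second one, which took 0.9% of its TPM in replicate 1 and 1.06% in replicate 2. Nefl (chromosome 14, 68083863 to 68089095, plus strand) and Nefm (68082590 to 68124846, minus strand) lie side by side, with 30187 bases between Nefl and the main Nefm model. The minor Nefm model runs on across Nefl on the opposite strand and shares 1108 exon bases with it. The posterior SD of the read count was the same for Nefl and Nefm, 19.2 reads in replicate 1 and 15.6 in replicate 2, against 63219 and 41746 reads of the genes in replicate 1. The deposited counts were fractional, 63218.57 for Nefl and 41746.43 for Nefm in replicate 1, as for reads divided between these genes. The shared SD thus covers that division. The strand setting of the authors' estimate is not given, and the true strand of reads within the overlap was not tested. Gfap reads were given whole to one coding model in replicate 1 and to the other in replicate 2, and with 10 and 3 reads no isoform use could be read from them.

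**Figure D4:**
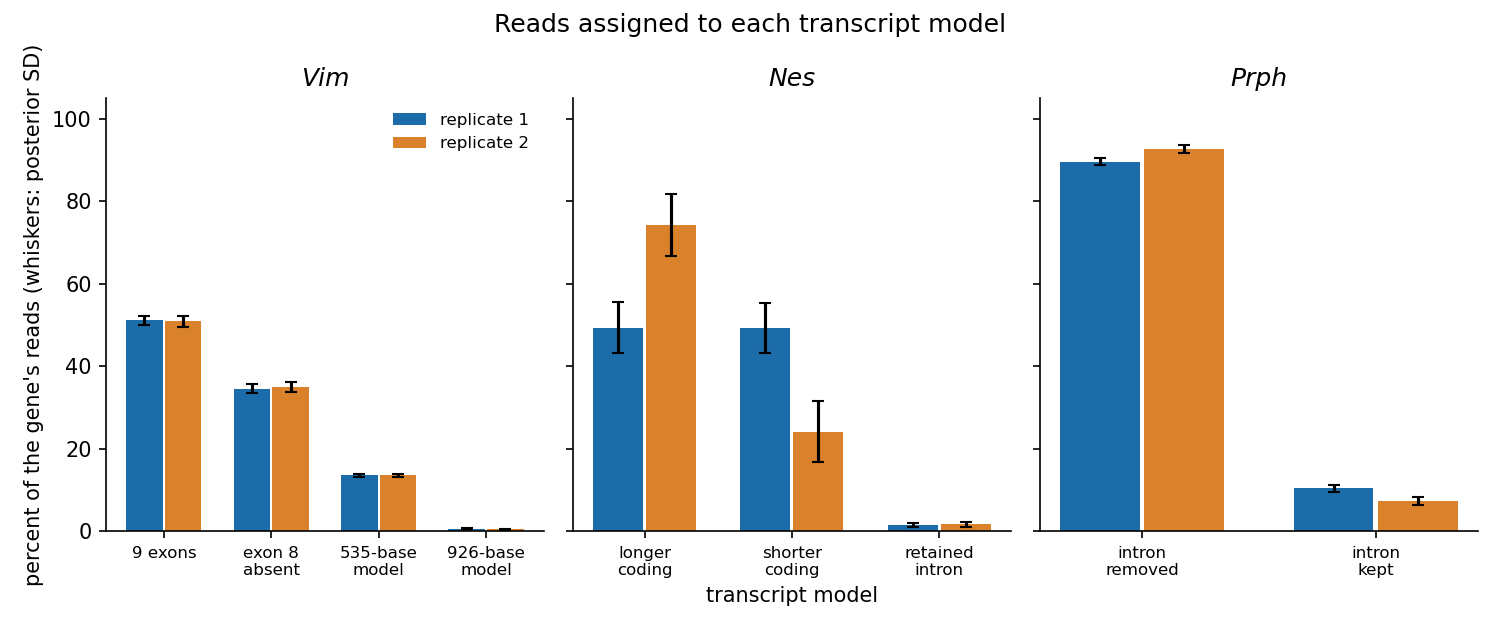
Percent of a gene's reads assigned to transcript models of Vim, Nes and Prph, as bars per library with whiskers of 1 posterior SD; the 2 smallest Vim models are left out. The Vim bars match between the libraries, the Nes coding models go from 49.4% and 49.2% to 74.3% and 24.1%, and the kept Prph intron takes 10.4% and 7.31%.

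For each gene the libraries were then set against each other by an exact binomial test (two-sided) of its reads. Library sizes were scaled by TMM, which trims extreme genes, and p-values were adjusted by Benjamini-Hochberg over the 17428 genes that averaged at least 10 reads. The test carries counting error only and compares these libraries, not conditions. Genes were called at a fold of 2 or more with an adjusted p below 0.05. That held for 2.25% of all tested genes, 1.46% higher in replicate 2 and 0.792% higher in replicate 1, and for 0 of the 7 filament genes tested. Gfap had too few reads to be tested. At the same adjusted p and any size, 24.6% of all genes passed, and 2 of the 7 filament genes did, Prph and Nefm, both higher in replicate 1.

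Prph had 10183 reads in replicate 1 and 4762 in replicate 2, a log2 ratio of replicate 2 over replicate 1 of -0.50 with a counting SE of 0.025 (exact binomial adjusted p = 2.68e-86), or 1.41-fold higher in replicate 1. Of the 1579 genes with a mean of 100 TPM or more, 1.2% differed between the libraries by at least as much. Nefm differed by a log2 ratio of -0.07 with an SE of 0.011 (exact binomial adjusted p = 1.53e-07), a size reached by 59.2% of those genes. The other filament genes lay between -0.03 for Ina and 0.05 for Nefh and Nes. The median size of the log2 ratio was 0.051 over the 7 filament genes and 0.082 over the genes of 100 TPM or more, so apart from Prph the filament genes were close between libraries, as most abundant genes were.

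Marker genes of the neurons that express peripherin were measured beside it. Of 8 sensory ganglion genes, 5 were higher in replicate 1 at an adjusted p under 0.05 and any size (exact binomial test), 0 were higher in replicate 2, and 3 did not pass, where 11.8% of all genes were higher in replicate 1. They summed to 678 and 572 TPM in replicates 1 and 2, and none of the 8 was at 0. Isl1, a LIM factor gene of both sensory and motor neurons, measured 127 and 101 TPM, a log2 ratio of -0.26. Pou4f1, a factor gene of sensory and dorsal spinal neurons, measured 115 and 121 TPM and did not pass. Avil and Scn10a, named after their values were seen, had log2 ratios of -0.67 and -0.51.

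By the same test at any size, 11.8% of all genes were higher in replicate 1 and 12.8% in replicate 2. Of 7 motor neuron genes, 2 were higher in replicate 1, Isl1 and Isl2, and 1 was higher in replicate 2, the choline transporter gene Slc5a7 at a log2 ratio of 0.26. The other genes of acetylcholine use, Chat at 2.41 and 3.24 TPM and Slc18a3 at 22.6 and 25.6 TPM, did not pass. Slc5a7 and Chat were named after their values were seen. The motor neuron list summed to 217 and 192 TPM, of which Isl1 alone gave 127 and 101 TPM. Of 5 Schwann cell genes, 3 were higher in replicate 1 and 0 in replicate 2, with sums of 74.3 and 66.6 TPM. Of the 9 general neuronal genes, 5 were higher in replicate 1 and 2 in replicate 2. The part of these cells in the Prph difference was not tested, and fewer cells of a type and less RNA per cell cannot be told apart in bulk RNA.

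**Figure D5:**
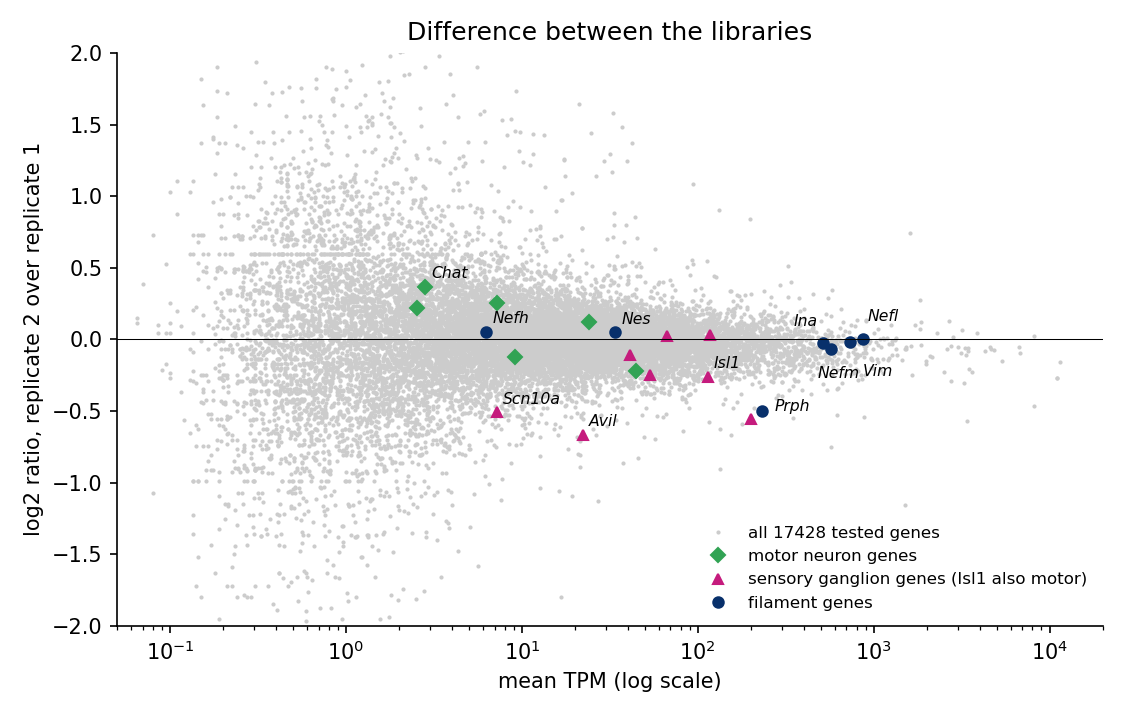
Log2 ratio of replicate 2 over replicate 1 against mean TPM on a log axis, for 17428 tested genes in grey, with filament, sensory ganglion and motor neuron genes marked; 95 genes lie beyond the axis limits of 2. Prph lies at -0.50, below the other filament genes, which lie near 0.

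Other intermediate filament genes were low beside the neural ones. Of 12 listed, 8 reached 1 TPM in both libraries, with a list median of 3.92 TPM. The nuclear lamina genes led: Lmnb1 measured 70.6 ± 11.5, Lmna 33.5 ± 1.95 and Lmnb2 30.2 ± 2.05 TPM (SD, n = 2). At 2-fold or more, 3 of the 12 were higher in replicate 2, where 1.46% of all genes were, and 0 were higher in replicate 1. These were the muscle filament gene Des at 2.45 and 5.84 TPM and the epithelial keratin genes Krt8 at 0.67 and 3.6 TPM and Krt18 at 1.05 and 3 TPM, named after their values were seen. They were higher in the library with the higher sum of muscle genes given above, and the part of surrounding tissue in them was not tested.

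Genes that link, move, modify or remove filaments were all expressed. All 14 of that list reached 1 TPM in both libraries, with a median of 72.6 TPM. The kinesin heavy chain gene Kif5c, a motor of axonal transport, at 137 ± 1.87 TPM and the kinase gene Gsk3b at 123 ± 6.28 TPM (SD, n = 2) were among the highest. Differences of 2-fold or more between the libraries were called for 0 of the 14. At an adjusted p under 0.05 and any size, 2 were higher in replicate 1 and 3 in replicate 2 (exact binomial test), against 11.8% and 12.8% of all genes.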

How the data were processed

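Total RNA of 2 libraries from 1 group was analysed from the tables as the authors deposited them, 1 of genes and 1 of transcripts per library. Build mm10 and GENCODE M4 are per the file headers of the deposited notes; the aligner, the quantifier and the treatment of strand were not given in the sources used here. The deposited expected counts are estimated reads. The deposited TPM and FPKM are scaled for length and depth by the authors, spike-ins included. Isoform percent, as deposited, gives each model's part of its gene's TPM. The deposited posterior SD of the count, in reads, served as a score of uncertain assignment.

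Symbols, coordinates and sequences came from GENCODE M21 on GRCm38, matched on identifiers without version. All 19 models of the 8 genes were found there, 17 with the same length; both Prph models differ in length. Expected counts were rounded, scaled by TMM (edgeR 4.0.16, R 4.3.3) and compared between libraries with SciPy 1.17.1 by exact binomial tests, with 0.5 added for ratios; no model with replicates per group could be fitted to 1 group. The test was checked on simulated reads that held Poisson counting error only. That check cannot show how the test behaves with further spread between libraries. DESeq2 1.42.0 size factors, total counts, no filter, posterior mean counts, FPKM and unscaled counts were alternatives. Intervals are exact Poisson or Wilson at 95% and cover counting error only.

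The 8 genes, the 11 lists of 86 genes and the tests were chosen with earlier results of these data known. The rule named all 8 genes, the 3 highest genes of a list and overlapping genes; others are marked in the text, and values of some listed genes are not reported here.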

Additional observations from a re-analysis of the deposited data

How the results depend on the processing

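The order Nefl, Nefm, Ina, Prph and Nefh and the low levels of Nefh and Gfap beside the other members of their groups held under every alternative computed for length, unit and single libraries; the place of Vim did not, as described with its models. Undivided by length, reads gave a neuronal share of the 8 genes of 85.5% in place of 74.1%, shares of the 5 neuronal genes of 42.4% for Nefl, 27.4% for Nefm, 0.364% for Nefh and 5.82% for Prph, and a log2 ratio of Nefl to Vim of 1.58 in place of 0.25. Reads over the main coding model gave 81.8% and 0.93, and coding models alone 82.6% and 1.02 for that share and ratio. Rescaling TPM to mouse genes alone moved all levels by one factor per library. Without the fold minimum, 4279 in place of 392 genes and 2 in place of 0 filament genes were called between libraries. The Nefl ratio between libraries, 0 to 2 decimals, took the sign of -0.00592 without a filter and of -0.000418 with posterior mean counts, inside its counting SE of 0.009. Prph and Nefm passed the adjusted p under each scaling and filter, and Ina also did without a filter. No pairing of samples between groups was possible because there is only 1 group. Ratios between genes were taken within each library. With 2 libraries, leaving one out leaves single values, which are given for each gene. Depth limits only Gfap, at 10 and 3 reads.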
